A study of Mus musculus with 3 samples.

Results

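Zinc, copper and iron handling genes were examined in kidneys of acetate-fed mice. The genes were chosen by their symbols: the zinc exporters of the Slc30a family, the zinc importers of the Slc39a family, the metallothioneins, the copper transporters Slc31a1, Slc31a2, Atp7a and Atp7b, and genes of iron uptake, export, storage and sensing. The array annotation named 47 of the 49 genes on that list through probe sets (groups of short probes that report 1 transcript) with a single gene symbol, out of 18194 genes named in the same way. These 47 genes had 97 probe sets. The remaining genes, Trf and Ftl1, were reached only by probe sets that carry several symbols and were not analysed here.

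Total RNA of whole kidney was profiled from 3 C57BL/6 mice under conventional housing, 1 array per mouse, and no allele or transgene is named for any of them. The acetate group consists of 2 mice that drank water with 200 mM acetate (C2, a product of gut fermentation) for 6 weeks, starting at an age of 3 weeks, and 1 mouse was the control. Sex and cage were not given in the sources used here. Expression is given on the deposited log2 scale, on which a step of 1 means 2-fold. Means of the acetate group carry the SD over n = 2 mice. The single control has no error of its own, and nothing in the labels says whether the acetate-fed mice shared a cage. The p-values set the mean change against a spread taken from the acetate pair and pooled across probe sets. They do not measure the spread between control mice.

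Zinc, copper and iron are cofactors of many enzymes, and free ions of copper and iron are also toxic, so cells move them through dedicated carriers and hold them in binding proteins. Slc39a (ZIP) proteins bring zinc into the cytosol, Slc30a (ZnT) proteins move it out or into vesicles, and metallothioneins bind it. Iron enters cells on transferrin through its receptor Tfrc or as the free ion through Slc11a2, is stored in ferritin, and leaves through ferroportin (Slc40a1) with help from the copper oxidases ceruloplasmin (Cp) and hephaestin. The kidney filters these metals and its tubule reclaims them, and the proximal segment of the tubule is rich in metallothionein and ferroportin.

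The metal genes did not move as 1 block: a minority rose or fell and most did not pass the test. Ceruloplasmin, metallothionein 2, the transferrin receptor, the phagosomal metal carrier Slc11a1 and the zinc importer Slc39a4 rose. Ferroportin, the zinc importers Slc39a5 and Slc39a11 and the zinc carrier Slc30a2 fell. The mean changes of these 9 genes lay between 1.42-fold and 1.93-fold. Each gene stood by the brightest of its tested probe sets and was said to rise or fall when limma's moderated test gave an adjusted p under 0.05. Of the 47 genes, 41 lay in the tested upper 60% of probe sets by mean value. In that comparison 5 of the 41 rose and 4 fell, 22.0% together, where 8.11% of all 13473 tested genes passed (4.13% higher and 3.97% lower). The median difference of the 41 genes was 0 in each mouse, as it was for all tested genes. The counts by role below cover few genes each, and beside these shares nothing is read from them.

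**Figure D1:**
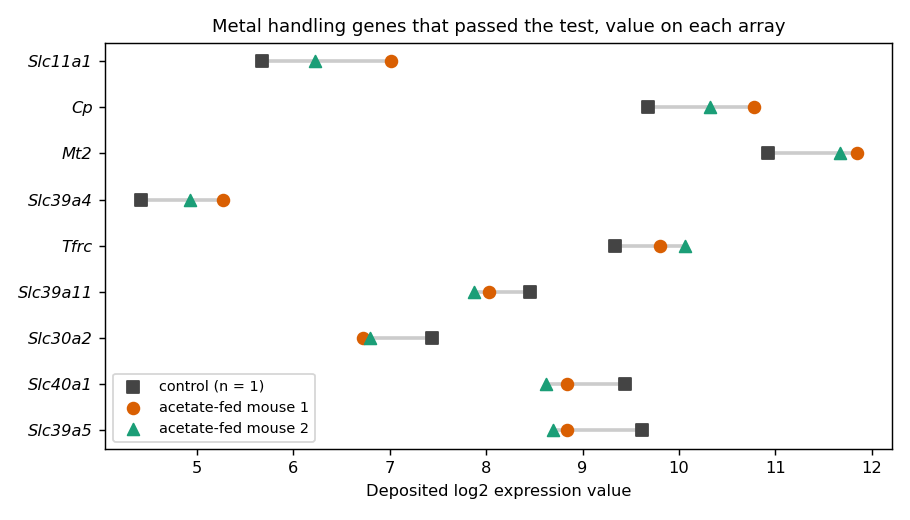
Deposited log2 value on each array (horizontal axis) of the 9 metal handling genes that passed limma's test; the square is the control, the circle acetate-fed mouse 1 and the triangle acetate-fed mouse 2. In each row both acetate-fed values lie on the same side of the control, as in Mt2 at 10.92 in the control against 11.84 and 11.68.

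Regardless of any test, 12 of the 41 genes lay above the control in both acetate-fed mice (26.0% of all tested genes did) and 14 lay below it in both (30.9%). Exactly the same value on all 3 arrays was listed for 6 genes (17.9% of all tested genes), namely Slc30a3, Slc30a4, Slc31a1, Slc39a7, Slc39a9 and Slc39a14, and the other 9 differed in direction between the mice or matched the control in 1 of them. At least 2-fold from the control in both mice, 0 genes were higher and 0 lower, where 0.408% and 0.460% of all tested genes were (0.868% together). Counted by probe set, 11 of 77 tested rose and 6 fell in 13 genes, against 4.0% and 3.08% of all tested probe sets (7.08% together).

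These calls rest on a spread estimated across probe sets and on 1 control array. After quantile normalization or median centring of the arrays, 0 of the 9 passed limma's test. Among the upper 40% of probe sets 2 of the 9 passed. Over the whole array 0, 0 and 266 probe sets passed in these settings, in that order, against 1914 in the main fit. The loss of calls was thus not limited to the metal genes. The prior degrees of freedom, which weight the pooled spread, were 1.14, 2.26 and 5.69 in these settings, against 26.5 in the main fit. Across the alternatives the mean difference lay between 0.80 and 0.91 for Cp and between 0.43 and 0.68 for Slc39a4. Why the calls were lost was not tested. At an unadjusted p under 0.05, 4 members were higher and 9 lower after quantile normalization, and 5 and 10 after median centring. Of all 27022 tested probe sets, 4277 and 4971 had such a p in either direction.

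**Figure D2:**
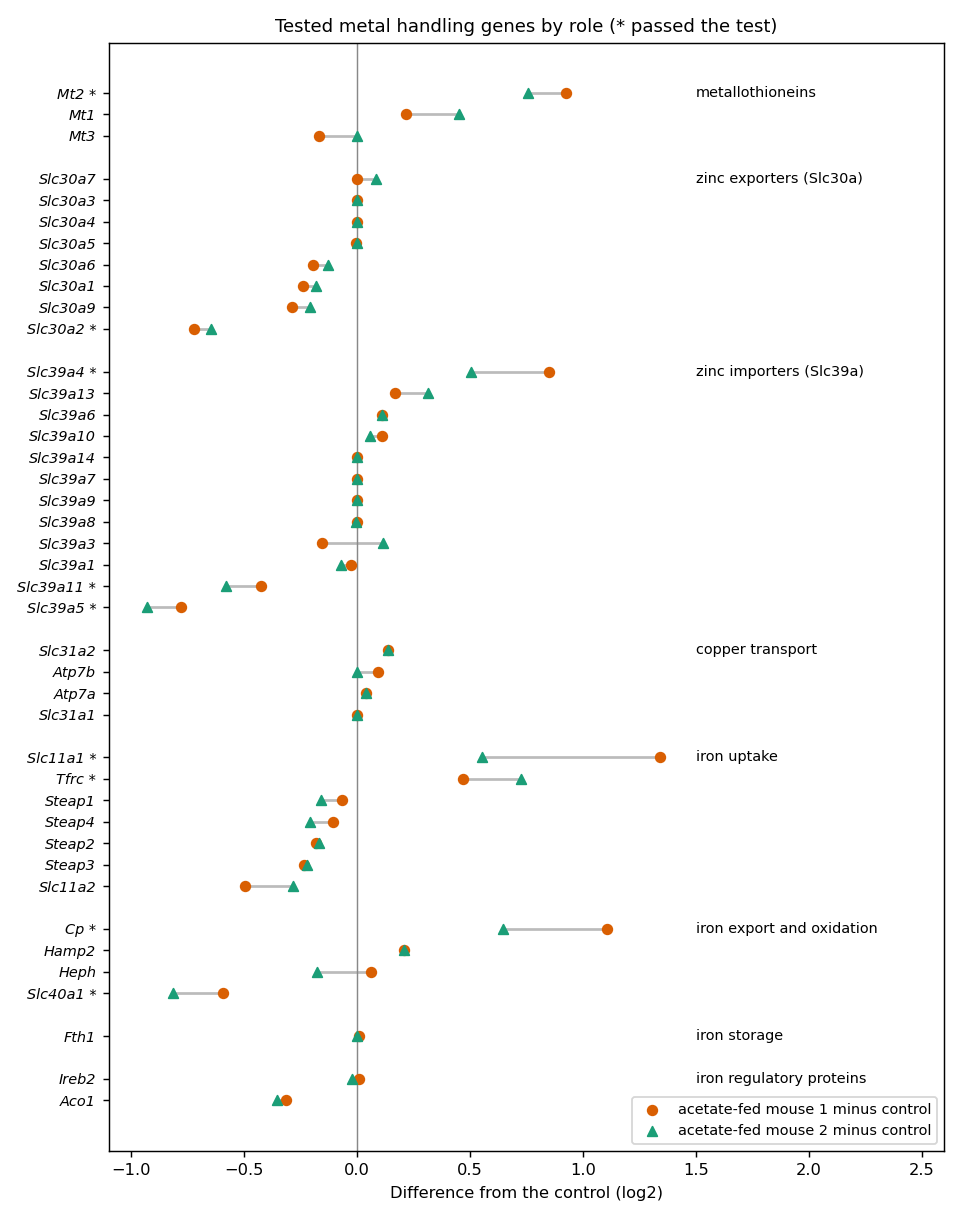
Difference from the control on the log2 scale (horizontal axis) for each of the 41 tested genes, grouped by role; circles are acetate-fed mouse 1, triangles acetate-fed mouse 2, and an asterisk marks the 9 genes that passed the test. Most genes sit at or near 0, with Slc11a1 at 1.34 in mouse 1 and Slc39a5 at -0.93 in mouse 2 as the far ends.

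Whole-kidney RNA cannot tell fewer cells of a type from less RNA per cell, and several cell types differed between these arrays. Kidney markers were present on every array, with Umod, the abundant protein of the thick ascending limb, at 13.53 in the control and 13.65 ± 0.03 in the acetate group. Of 4 loop and distal tubule markers 1 rose, Slc12a1, the salt carrier of that limb (1.52-fold, limma adjusted p = 0.0011), and the list's summed level on the linear scale was 25401 in the control, against 27809 in mouse 1 and 32729 in mouse 2. Of 4 collecting duct markers 1 rose, the water channel Aqp2 (1.76-fold, limma adjusted p = 0.00063), with sums of 5418, 6380 and 9338. Aqp2 was the brightest of the 4 and weighs most in these sums. The others were mixed: Aqp3 was higher by 0.18 and 0.70. Scnn1g differed by -0.44 and 0.13, and Atp6v1b1 by -0.25 and -0.003. Both sums were highest in mouse 2, as Tfrc and Mt1 were. All 11 tested macrophage markers of 12 rose, and their summed level on the linear scale was 2640 in the control, against 9909 in mouse 1 and 5382 in mouse 2. Of 7 tubular injury markers, 6 were tested and all 6 rose, with sums of 5389, 11991 and 8515. Proximal tubule markers were lower in both mice at 7 of 8 genes, 3 of which fell, with sums of 57114, 47705 and 40566. Kap was the brightest of the 8, weighs most in these sums and differed by -0.14 and -0.60. Slc5a2 and Slc5a12 were higher in mouse 2 than in mouse 1, and the others were lower there. Adipocyte markers fell at all 5 tested of 8, with sums of 6488 in the control against 1070 and 1160; Adipoq, the fat hormone adiponectin, stood at 9.98 in the control and at 4.38 and 3.87 in the acetate-fed mice. Of hepatocyte markers, 3 of 6 tested fell, with sums of 2260, 1537 and 2502. Ttr was the brightest of the 6, weighs most in these sums and differed by -0.44 and 0.37 without passing. The 3 that fell, Alb, Apoa2 and Fgb, were lower in both mice. The part of these markers in the metal gene differences was not tested.

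Metallothioneins are small cysteine-rich proteins that bind zinc, copper and cadmium and are made in response to metals, glucocorticoids and oxidants. Mt2 had a log2 value of 10.92 in the control, against 11.84 in mouse 1 and 11.68 in mouse 2. Both acetate-fed kidneys lay above the control and close to each other, a rise of 0.84 ± 0.12 (SE), or 1.79-fold (limma adjusted p = 1.6e-05).

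Mt1 was reported by a bright and a dim probe set. The bright one, which stands for the gene, read 11.88 in the control, against 12.10 in mouse 1 and 12.33 in mouse 2, a difference of 0.33 ± 0.12 (SE) that did not pass (limma adjusted p = 0.11). The dim one read 5.63 in the control, against 6.64 in mouse 1 and 6.99 in mouse 2, 2.02-fold and 2.55-fold higher, and passed (limma adjusted p = 1e-05). It was the 1 tested metal probe set that was at least 2-fold from the control in both mice. Both probe sets were higher in both mice and highest in mouse 2, but differed in the size of the step. The brain form Mt3 read 5.52 in the control, against 5.35 in mouse 1 and 5.52 in mouse 2, and Mt4, a form of squamous epithelium, lay below the tested range at 3.38 to 3.57.

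Mt1 and Mt2 lie side by side on mouse chromosome 8, and together with the zinc exporter gene Slc30a1 they are classical targets of the zinc sensor MTF1, which binds metal response elements. The 250 bases upstream of the annotated starts of these 3 genes are shown because the metallothioneins and Slc30a1 lay on opposite sides of the control. They are RefSeq sequences of build GRCm38.p6, plus strand, 5′ to 3′, and capitals mark each match to the element's core, searched as TGCACNC and TGCGCNC on both strands; the motifs differ at 1 letter and cannot overlap at the same start.
Mt1, chr8:94178839-94179088: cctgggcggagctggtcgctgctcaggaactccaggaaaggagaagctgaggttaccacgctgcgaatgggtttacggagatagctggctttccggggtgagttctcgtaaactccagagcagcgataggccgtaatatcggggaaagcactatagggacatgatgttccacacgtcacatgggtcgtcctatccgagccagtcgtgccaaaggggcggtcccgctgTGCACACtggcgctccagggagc
Mt2, chr8:94172368-94172617: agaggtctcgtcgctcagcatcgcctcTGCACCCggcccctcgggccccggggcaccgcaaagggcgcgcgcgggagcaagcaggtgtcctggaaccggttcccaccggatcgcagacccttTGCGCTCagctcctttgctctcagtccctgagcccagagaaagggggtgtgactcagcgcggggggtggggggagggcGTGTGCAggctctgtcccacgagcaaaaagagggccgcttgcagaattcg
Slc30a1, chr1:191906531-191906780: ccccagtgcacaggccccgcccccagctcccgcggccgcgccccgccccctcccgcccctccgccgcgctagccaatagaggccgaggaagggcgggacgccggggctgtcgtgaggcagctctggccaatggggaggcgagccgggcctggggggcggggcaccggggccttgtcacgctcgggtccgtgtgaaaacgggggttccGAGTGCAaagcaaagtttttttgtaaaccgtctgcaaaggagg

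Mt2 held 3 matches upstream of its start, Mt1 held 1 and Slc30a1 held 1. In the whole window of 300 bases, which runs 50 bases past the start, the counts were 4, 3 and 2. The Mt1 count thus depended on where the annotated start lies. The letters shown stop at that start, so matches that reach past it are not displayed. With 1 match each upstream, Mt1 and Slc30a1 did not stand apart from the other metal genes. Mt2 had the highest count in the whole window among the listed metal promoters, where 1.97% of all windows had 3 or more. Slc30a10, below the tested range, also held 3 upstream. Some of its matches overlap on opposite strands, so they are not 3 separate sites, as those of Mt2 are. Overlapping matches were counted separately. Of other genes that passed, Slc30a2 held 2 upstream. At their 2 listed starts Tfrc held 2 and 0, Slc39a11 1 and 1, Slc39a5 0 and 1, and Cp 0 and 0. The Tfrc matches overlap each other. Slc11a1 held 0. Of all 32851 promoters in the table, 21.4% had a match in the upstream 250 bases and 1.26% had 3 or more. A promoter was listed for 40 of the 47 metal genes, and 20 of their 53 promoters (37.7%) had a match. These matches describe letters and not binding.

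Among the zinc exporters, 1 of 8 tested genes fell and 0 rose, and 4 of the 8 were lower in both mice. Slc30a2, which loads zinc into vesicles, read 7.44 in the control, against 6.72 in mouse 1 and 6.79 in mouse 2. The acetate-fed pair lay close together and below the control, a fall of 0.69 ± 0.15 (SE) on the log2 scale, or 1.61-fold (limma adjusted p = 0.0027).

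Slc30a1, the exporter of the plasma membrane, read 8.84 in the control, against 8.60 in mouse 1 and 8.65 in mouse 2 (limma adjusted p = 0.57). Its dimmer probe set read 7.35, 6.99 and 6.93 (limma adjusted p = 0.12), so both were lower in both mice and neither passed. Slc30a9, a zinc carrier of mitochondria, read 9.37, 9.09 and 9.16 (limma adjusted p = 0.39). Slc30a6, a carrier of the secretory pathway, was lower by 0.20 and 0.13, and Slc30a5 and Slc30a7 of the same pathway differed by at most 0.09. Slc30a3, which fills synaptic vesicles, and Slc30a4 were listed at 1 value on all arrays. Slc30a8, the carrier of insulin granules, and Slc30a10, an exporter of manganese, lay below the tested range at 2.84 to 3.30.

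Zinc importers changed in both directions: of 12 tested genes 1 rose and 2 fell. Slc39a5, a zinc importer of the basolateral membrane in gut epithelium, had the largest change among the importers. It read 9.62 in the control, against 8.84 in mouse 1 and 8.69 in mouse 2, a fall of 0.86 ± 0.13 (SE) on the log2 scale, or 1.81-fold (limma adjusted p = 4.5e-05). Both acetate-fed kidneys were low, mouse 2 more so.

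Slc39a11, an importer of the Golgi and nucleus, read 8.46 in the control, against 8.03 in mouse 1 and 7.88 in mouse 2, a fall of 0.50 ± 0.14 (SE), or 1.42-fold (limma adjusted p = 0.021). Slc39a4, the intestinal zinc importer that is defective in acrodermatitis enteropathica, went the other way. It read 4.42 in the control, against 5.27 in mouse 1 and 4.93 in mouse 2, 1.80-fold and 1.42-fold higher (limma adjusted p = 0.013), at a level close to the lowest tested mean of 4.21.

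Slc39a8 and Slc39a14 also carry iron and manganese, and Slc39a14 is induced in the liver by inflammation. The 2 probe sets of Slc39a8 disagreed. The brighter one read 8.87 on all 3 arrays to the second decimal, while the dimmer one read 7.14 in the control, against 8.13 in mouse 1 and 7.75 in mouse 2 and passed as higher (1.98-fold and 1.52-fold, limma adjusted p = 0.00084). Of the 4 probe sets of Slc39a14, the brightest was listed at 8.07 on all arrays and the largest difference was 0.21.

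The remaining importers showed small differences. Slc39a13, a carrier of the secretory pathway, read 8.14 in the control, against 8.31 in mouse 1 and 8.45 in mouse 2 (limma adjusted p = 0.48). Slc39a6 and Slc39a10, paired importers of the plasma membrane, were higher by at most 0.11 and Slc39a1 lower by at most 0.07. Slc39a3 lay 0.16 below the control in mouse 1 and 0.12 above it in mouse 2. Slc39a7, which releases zinc from the endoplasmic reticulum, and Slc39a9 were listed at 1 value. Slc39a2 and Slc39a12 lay below the tested range, at 2.62 to 3.57.

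Copper transport genes lay within 0.14 of the control, and 0 of 4 passed limma's test (0 at an unadjusted p under 0.05). With 8.11% of all tested genes passing, so few genes cannot show whether this group differs from the rest. Slc31a1, Slc31a2 and Atp7a also had exactly tied acetate values. Slc31a1, the high-affinity copper importer CTR1, was listed at 9.12 on all 3 arrays, and its dimmer probe set ranged from 8.11 to 8.21. Slc31a2, its relative in endosomes, was 8.20 in the control and 8.34 in both acetate-fed mice. The copper pumps are mutated in Menkes disease (Atp7a) and Wilson disease (Atp7b). Atp7a read 7.10 in the control and 7.14 in both others, and Atp7b read 5.42, 5.52 and 5.42.

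Ceruloplasmin, the copper-carrying ferroxidase of plasma, had the most probe sets that rose among the metal genes. Its main probe set read 9.68 in the control, against 10.78 in mouse 1 and 10.32 in mouse 2. Both acetate-fed kidneys were above the control, mouse 1 by 2.15-fold and mouse 2 by 1.57-fold, with a mean rise of 0.88 ± 0.14 (SE; limma adjusted p = 0.00011). Of 7 tested Cp probe sets 5 rose, with limma adjusted p-values from 1.4e-05 to 0.00013, and the remaining pair were higher in both mice by 0.09 to 0.60 without passing. The untested one of its 8 probe sets, at 2.71 in the control, was higher in both as well, by 2.80-fold and 2.20-fold. Probe sets of 1 gene share their RNA and are not replicates. Injury and macrophage markers, given above, were likewise higher in mouse 1 than in mouse 2 by their sums, and their part in the Cp rise was not tested.

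**Figure D3:**
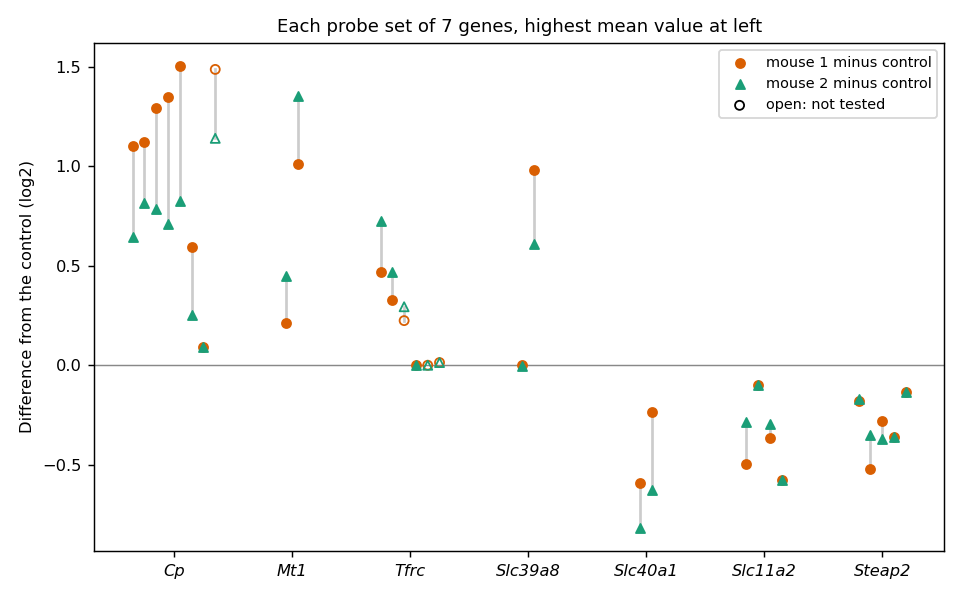
Difference from the control on the log2 scale (vertical axis) for each probe set of Cp, Mt1, Tfrc, Slc39a8, Slc40a1, Slc11a2 and Steap2, ordered from the highest mean value at the left of each gene; circles are acetate-fed mouse 1, triangles acetate-fed mouse 2, and open symbols were not tested. Every Cp probe set lies above 0 and every Slc40a1, Slc11a2 and Steap2 probe set below it, while the 2 probe sets of Slc39a8 differ, at about 0 and at 0.98 and 0.61.

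Of 4 tested genes of iron export and oxidation, 1 rose (Cp) and 1 fell (Slc40a1). Slc40a1, ferroportin, the known cellular iron exporter and the target of hepcidin, read 9.44 in the control, against 8.84 in mouse 1 and 8.62 in mouse 2. It fell by 0.71 ± 0.13 (SE) on the log2 scale, 1.51-fold in mouse 1 and 1.76-fold in mouse 2 (limma adjusted p = 0.00075). Its second probe set read 8.54, 8.31 and 7.91, lower in both mice without passing (limma adjusted p = 0.089). The summed proximal tubule markers given above, in which Kap weighs most, also stood lowest in mouse 2. Their part in this fall was not tested.

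Hephaestin, the membrane-bound relative of ceruloplasmin, read 6.11 in the control, against 6.18 in mouse 1 and 5.94 in mouse 2. Hamp2, a mouse paralog of the hepcidin gene, read 4.70 in the control and 4.91 in both acetate-fed mice (limma adjusted p = 0.82). Its probes may also read Hamp, the gene of the iron hormone hepcidin itself, whose own probe sets lay below the tested range at 2.92 to 3.85.

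Of 7 tested iron uptake genes 2 rose and 0 fell, and by their brightest probe sets 5 were lower in both mice without passing. Tfrc, the transferrin receptor, read 9.34 in the control, against 9.81 in mouse 1 and 10.06 in mouse 2, a rise of 0.60 ± 0.13 (SE), or 1.51-fold (limma adjusted p = 0.0034). Both acetate-fed kidneys lay above the control, mouse 2 more so. The second Tfrc probe set was higher by 0.33 and 0.47 (limma adjusted p = 0.13), a dim one was listed at 4.30 on all arrays, and of 3 Affymetrix control probe sets for this transcript the brightest was higher by 0.22 and 0.29. Young red cells carry much Tfrc. Of 11 red cell markers 5 were tested, with summed levels of 591 in the control, against 526 in mouse 1 and 984 in mouse 2. The sums rest mostly on Slc4a1 and Alas2. Hba-a2 and Epb42 were dim, listed at 4.91 and 4.24 on all arrays, and Hbb-b2 read 4.69, 4.74 and 4.91. Of these 5, 1 rose: Slc4a1, the anion exchanger of red cells and also of the collecting duct, read 8.15, 8.50 and 9.16 (limma adjusted p = 0.012), in the same order as Tfrc. Alas2, the haem enzyme of red cell precursors, read 7.85, 6.49 and 8.37. The part of these markers in the Tfrc rise was not tested.

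Slc11a1 (NRAMP1) pumps iron and manganese out of the phagosomes of macrophages. It read 5.67 in the control, against 7.02 in mouse 1 and 6.23 in mouse 2, 2.53-fold and 1.47-fold higher, with a mean of 6.62 ± 0.56 (limma adjusted p = 0.0023). Mouse 1 was the higher of the pair here, and the macrophage marker Adgre1 (F4/80) had the same order, at 6.29, 7.61 and 7.28. The part of macrophage markers in this rise was not tested.

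Slc11a2 (DMT1), the carrier of ferrous iron across the apical and endosomal membranes, read 8.10 in the control, against 7.60 in mouse 1 and 7.81 in mouse 2, which did not pass (limma adjusted p = 0.12). All 4 of its probe sets were lower in both mice. The dimmest of them fell, from 5.39 to 4.81 in both acetate-fed mice (limma adjusted p = 0.031). Its acetate values were exactly tied, so its p rests on the spread pooled across probe sets alone.

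Steap proteins reduce iron and copper at the membrane so that they can be carried. Steap2 read 9.30 in the control, against 9.12 in mouse 1 and 9.13 in mouse 2 (limma adjusted p = 0.72). Each of its 5 probe sets was lower in both mice, and 1 of them passed as lower, with 8.79, 8.27 and 8.45 (limma adjusted p = 0.049). Steap3, the reductase of red cell precursors, read 6.72, 6.49 and 6.50 (limma adjusted p = 0.63). Steap1 was lower by 0.07 and 0.16, and Steap4, a gene of fat tissue and inflammation, by 0.11 and 0.21, and neither passed. The adipocyte markers were higher in the control kidney, and their part in the Steap4 values was not tested.

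None of the 3 tested genes of iron storage and sensing passed limma's test, where 8.11% of all tested genes did (1 of them, Aco1, had an unadjusted p under 0.05). Fth1, the ferritin heavy chain, was listed at 14.35 on each array to the second decimal, and its second probe set at 13.59, 13.59 and 13.53. Ireb2, an RNA-binding iron sensor that controls ferritin and Tfrc after transcription, read 8.10, 8.11 and 8.08. Aco1, which serves as cytosolic aconitase or as the second such sensor, read 10.45 in the control, against 10.13 in mouse 1 and 10.09 in mouse 2. Both acetate-fed values lay below the control by 0.32 and 0.36 without passing (limma adjusted p = 0.11).

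Neither acetate-fed mouse had the larger difference throughout. Among the 12 tested genes that were higher in both mice, the difference was larger in mouse 1 in 5, larger in mouse 2 in 3 and exactly equal in 4 (Atp7a, Slc31a2, Hamp2 and Slc39a6). Among the 14 that were lower in both, it was larger in mouse 1 in 7 and in mouse 2 in 7. Cp, Slc11a1, Slc39a4 and Mt2 were higher in mouse 1 than in mouse 2, whereas Tfrc and Mt1 were highest in mouse 2, and Slc40a1, Slc39a5 and Slc39a11 were lowest there. Slc30a2 was slightly lower in mouse 1. With 1 mouse each, these orders have no test.

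**Figure D4:**
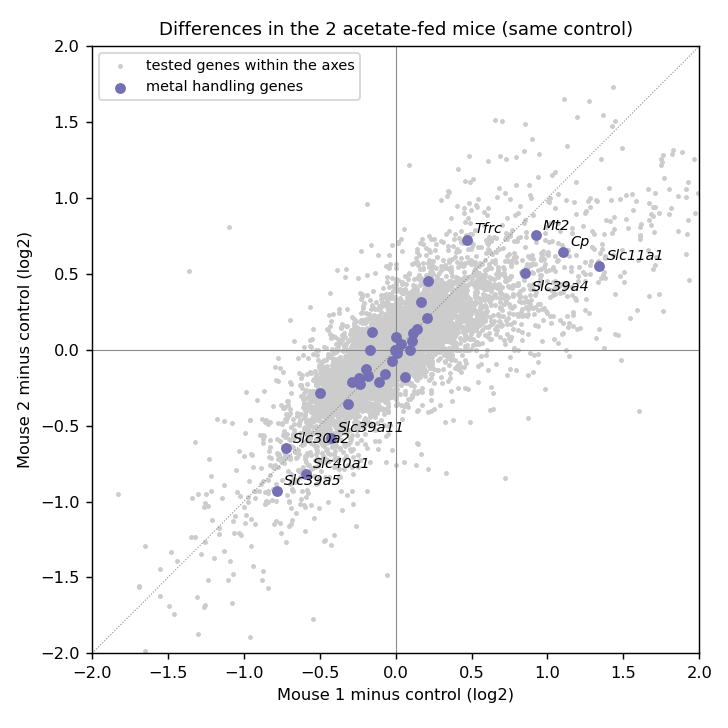
Difference from the control in mouse 1 (horizontal axis) and mouse 2 (vertical axis), both log2; large points are the 41 tested metal handling genes, small points all tested genes within 2 of 0, and the dotted line marks equal differences. Both axes share the same control array, which by itself draws points towards the diagonal; Slc11a1 lies at 1.34 and 0.55, and Tfrc at 0.47 and 0.72.

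Other genes of the metal pathways, taken from lists of 70 genes of which 61 were tested, gave 2 that rose and 5 that fell, where 4.13% of all tested genes rose and 3.97% fell (8.11% together), and nothing is read from the smaller counts below. Mouse 1 had a median difference of -0.12 over them and mouse 2 one of -0.01. Among 12 copper chaperones and enzymes, with the zinc sensor Mtf1, Lox rose and 7 were lower in both mice. Lox, the copper enzyme that crosslinks collagen, read 6.19 in the control, against 7.07 in mouse 1 and 6.61 in mouse 2 (limma adjusted p = 0.014). Sod3, the extracellular copper-zinc superoxide dismutase, read 11.71, 11.48 and 11.11 (limma adjusted p = 0.057), and Ccs, the copper chaperone of Sod1, read 10.59, 10.27 and 10.40 (limma adjusted p = 0.30). Mtf1, picked after its values were seen, read 6.63, 6.41 and 6.63.

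Of 12 tested genes in the control of hepcidin, which runs through bone morphogenetic protein signals, 2 fell. Id1, a target gene of that pathway, read 9.44 in the control, against 8.70 in mouse 1 and 8.90 in mouse 2, a 1.56-fold fall (limma adjusted p = 0.0018). Acvr1, a receptor of the pathway, read 6.30, 5.81 and 5.73 (limma adjusted p = 0.036). The inhibitor Smad7 read 8.05, 7.82 and 7.68 (limma adjusted p = 0.32).

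In the list of iron trafficking and ferritin turnover, 1 of 11 tested genes rose and 1 fell. Lcn2, the siderophore-binding lipocalin that also marks tubular injury, rose from 6.36 to 10.44 in mouse 1 and 8.67 in mouse 2 (limma adjusted p = 5.1e-08). Cubn, the endocytic receptor that takes up filtered transferrin in the proximal tubule, read 11.98, 11.59 and 11.40 (1.40-fold lower, limma adjusted p = 0.0097); it also stands in the proximal tubule marker list above. Epas1, an oxygen-regulated transcription factor whose translation responds to iron, was higher by 0.38 and 0.21 (limma adjusted p = 0.20).

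In haem synthesis 1 of 8 tested genes fell: Cpox, coproporphyrinogen oxidase, read 7.93 in the control, against 7.35 in mouse 1 and 7.38 in mouse 2 (1.48-fold, limma adjusted p = 0.0098). Alad and Uros, which act early in the pathway, were lower by at most 0.27 and did not pass. In haem breakdown, transport and scavenging 1 of 11 fell. That gene was Hp, the haemoglobin-binding haptoglobin, at 7.73 in the control, against 5.57 in mouse 1 and 5.11 in mouse 2 (4.45-fold and 6.14-fold lower, limma adjusted p = 7.9e-11). Fat tissue and liver also express Hp, and the adipocyte markers given above differed in the same direction; their part in its fall was not tested. Hmox1, which breaks down haem, read 7.64, 8.19 and 7.98 without passing (limma adjusted p = 0.055), and Lrp1, a receptor for haem bound to hemopexin, was higher by 0.74 and 0.21 (limma adjusted p = 0.096).

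In mitochondrial iron and iron-sulphur assembly, 0 of 7 tested genes passed limma's test (0 at an unadjusted p under 0.05). The largest differences in 1 direction were those of Isca2, at -0.31 and -0.14, Iscu, the assembly scaffold, at -0.25 and -0.06, and Nfs1, the sulphur donor enzyme, at -0.13 and -0.04.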

How the data were processed

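Biotin-labelled kidney RNA of 3 mice was hybridised to single-colour Affymetrix arrays. The authors deposited log2 values for 45101 probe sets with near-equal medians (4.91, 4.94 and 4.93); per the submitters' processing notes MAS5 was used, and the summary that gave log2 values is not given in the sources used here. Groups came from the sample titles. Of tested probe sets, 33.7% had exactly tied acetate values. The 27022 probe sets in the upper 60% by mean (at least 4.21, without Affymetrix controls) were fitted with limma 3.58.1 in R 4.3.3, acetate minus control, with Benjamini-Hochberg adjustment at 0.05 over all of them. The prior spread, with an intensity trend, was estimated from pairs without exact ties (prior degrees of freedom 26.5, against 1 residual degree), since a tie is not a measured spread; tied pairs got that prior alone. The single control array is taken to vary as the acetate pair does, so p-values mostly reflect the size of the mean change. Detection calls and backgrounds are not known, and the number of arrays limits precision.

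In 20 simulated runs of this comparison on 27022 probe sets, 200 of them changed, the fit recovered 50.2% of 1.5-fold, 98.5% of 2-fold and 100% of 4-fold changes. There 11.9% of calls were false, or 21.8% with tied pairs drawn once, so in that setting the test was more lenient than its threshold. With ties kept in the prior, 98.6% of calls were false. The runs drew the control with the same spread as the acetate pair, so they cannot show false calls from an unusual control mouse. These shares also depend on the 200 changed probe sets, where the data gave 1914 calls. Symbols came from the platform annotation, checked by Entrez identifier against RefSeq (GRCm38.p6), which also gave the promoters. Named in full were genes with a called probe set, those at least 2-fold in both mice, the 15 with the largest same-direction mean difference, and a fixed set of core genes; in other lists, the called genes and the 3 largest. Members, lists and the treatment of ties were chosen with earlier results of these data known. Alternatives changed the ties, trend, filter, normalization, pseudocount (16), fold (1.5), probe set rule and replicates. Tables were made in Python 3.11.15 with pandas 2.3.3, figures with matplotlib 3.10.9.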

Additional observations from a re-analysis of the deposited data

How the results depend on the processing

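The direction of the 9 genes that rose or fell was the same under all alternatives run. All alternatives used the same arrays, and for each of these genes both mice lay on the same side of the control. Leaving out a mouse therefore could not turn a sign, and the kept direction is no separate support. Apart from leaving out a mouse, Tfrc lay between 0.33 and 0.62 and Slc40a1 between -0.73 and -0.57. Their calls were less stable: each passed limma's test in 5 to 7 of 13 alternatives (Slc39a4 in 5 of 12), 4 of which were chosen after seeing the data. The main counts were 5 higher and 4 lower. They became 0 and 0 after quantile normalization, after median centring and with the mean of a gene's probe sets (6 and 7 at an unadjusted p under 0.05 in the last), and again 0 and 0 after quantile normalization or centring with deposited ties kept out of the prior spread. They became 1 and 1 in the upper 40% of probe sets, 3 and 2 with the mean of probe sets and ties kept out, and 3 and 0 with tied pairs in the prior; the last shared 0 genes with the main calls. Calls over the whole array moved too, from 1914 probe sets to 0 after quantile normalization, 0 after centring and 266 in the upper 40%. With ties kept out they numbered 0 after quantile normalization and 25 after centring. The mean of a gene's probe sets gave 14, or 544 with ties kept out, and tied pairs in the prior gave 2846. Tied pairs left out or counted as 1 measurement, no trend, no filter and a pseudocount of 16 each kept the same 9 genes. A threshold of 1.5-fold in both mice gave 2 genes above and 3 below the control, against 0 at 2-fold; leaving out mouse 1 or 2 gave 0 to 2 genes at least 2-fold higher (Cp and Slc11a1 in mouse 1) and 0 lower. Genes higher in both mice numbered 20 after quantile normalization and genes lower in both 25 after median centring, which break exact ties. The median difference of all members moved from 0 to -0.00088 in the upper 40%, 0.021 after quantile normalization and -0.023 after centring, where all tested genes shifted by -0.016 and -0.023. The sign turned under a setting other than leaving out a mouse in 4 named genes, which did not pass in those fits: Atp7b (-0.0013 after quantile normalization, with ties kept out too), Fth1 (-0.0197 after centring, with ties kept out too, -0.013 with the mean of probe sets), Ireb2 (0.016 after quantile normalization) and Slc39a8 (0.022 after quantile normalization, 0.40 with the mean of probe sets). Without mouse 2 it also turned in Heph (from -0.06 to 0.06) and Ireb2 (from -0.0077 to 0.0074). The cause was not tested. No paired analysis was possible because the control has 1 array and its label no number.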

Other observations

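Exact repeats of values also occurred between different probe sets of 1 array. Of the 97 metal handling probe sets, 43 had a control value that another probe set of the same array also held, a smaller share than the 62.5% over all probe sets. Among the 77 tested metal probe sets, 24 had exactly tied acetate values and 12 the same value on all 3 arrays. Of the 11 metal probe sets that rose and the 6 that fell by limma's test, 1 had a tied pair, the dimmest of Slc11a2. In 7 genes a probe set that passed stood beside a tested one that did not, and in 0 genes did probe sets pass in opposite directions.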
